A study of Mus musculus with 21 samples.

Results

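Neurons release transmitter from synaptic vesicles that dock at a specialised patch of the presynaptic membrane, the active zone. Vesicle membrane proteins load, tether and recycle the vesicle, and the SNARE proteins of vesicle and plasma membrane pull the membranes together. Some synaptotagmins, and not all, couple fusion to the entry of calcium. Motor neurons use this machinery to release acetylcholine onto muscle, and it is assembled while the axon is still growing, before synapses form.

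The transcripts described here are 35 genes of this presynaptic vesicle machinery, out of 55400 genes in the deposited tables. They were taken by name as families of presynaptic vesicle proteins. This rule uses no measured value, but earlier results of these data were known when the members were chosen. They comprise 10 vesicle membrane genes, 7 genes of the synaptotagmin and Doc2 families, 8 SNARE genes and their regulators, 3 Rab3 genes and 7 active zone genes. All 35 had counts in the table.

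RNA-seq of polyA RNA was made from wild-type C57BL/6 mouse embryonic stem cells that were differentiated as embryoid bodies towards motor neurons of the hypaxial motor column, the neurons that innervate the body wall. All 7 groups received 1 µM retinoic acid and 0.5 µM SAG, a Hedgehog agonist, from day 2. The protocol names the base medium with DAPT, and neither of these agents, at day 5, so the step from D5 to D6 may also hold a change of medium, which cannot be told apart from time. The untreated groups were taken at day 4 (D4), 8 h later (D4H8), at day 5 (D5) and at day 6 (D6). Every group after D4 had also received 5 µM DAPT, a Notch pathway inhibitor, from day 4. Each comparison with D4 therefore also holds the start of DAPT, which cannot be told apart from time. The other 3 groups, D4H8_GSKJ4, D5_GSKJ4 and D6_GSKJ4, had in addition been given GSKJ4 for the last day before harvest. The study used GSKJ4 to inhibit the histone H3K27 demethylase activity of Kdm6b. It also names Kdm6a as an H3K27 demethylase, and the part of Kdm6a in the GSKJ4 results was not tested here. The embryonic stem cells had been kept on mouse embryonic fibroblast feeders, and the labels describe all samples as differentiated motor neurons. Each group had 3 libraries, named biological replicates.

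The libraries held 14982115 to 34383842 counts with a median of 16238435. Beside D6, where the motor neuron markers Isl1 (125.1 ± 9.61 FPKM, SD, n = 3) and Chat (27.1 ± 4.04 FPKM) were high, D4 had 3.79 ± 1.74 FPKM of Isl1 and 0.227 ± 0.246 FPKM of Chat, so the earliest groups did not carry the defining markers of their label at that level. Markers of pluripotent cells persisted: the summed level of Pou5f1, Nanog, Zfp42 and Dppa5a was 119.9 to 280.0 FPKM at D4 and 10.1 to 86.4 FPKM at D6, lowest in replicate 1. In bulk RNA, fewer cells of a type and less RNA per cell cannot be told apart. One D5_GSKJ4 library, replicate 2, had 39381 genes without a count, against 29339 to 32805 in the other libraries.

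Promoter windows of 4 members are shown because they stand for the different courses described below. Syn1 and Unc13a rose strongly from a low level, Syt11 was the most abundant member, and Vamp1 did not pass the test over the whole course. Each window runs from 250 bases before to 50 bases after the start of the gene in RefSeq (build GRCm38.p6), 5′ to 3′ along the gene. Capitals mark the 2 conserved parts of the RE1 element bound by the repressor Rest (TCAGCACC and GGACAG) and the cAMP response element TGACGTCA, on either strand.
Syn1 (chrX:20920869-20921168, minus strand): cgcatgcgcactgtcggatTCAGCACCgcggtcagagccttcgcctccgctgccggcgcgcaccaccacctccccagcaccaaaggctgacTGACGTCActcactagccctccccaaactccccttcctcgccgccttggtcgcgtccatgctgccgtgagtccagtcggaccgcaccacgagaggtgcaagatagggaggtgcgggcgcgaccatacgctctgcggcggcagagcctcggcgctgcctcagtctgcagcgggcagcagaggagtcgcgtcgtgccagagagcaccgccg
Unc13a (chr8:71671708-71672007, minus strand): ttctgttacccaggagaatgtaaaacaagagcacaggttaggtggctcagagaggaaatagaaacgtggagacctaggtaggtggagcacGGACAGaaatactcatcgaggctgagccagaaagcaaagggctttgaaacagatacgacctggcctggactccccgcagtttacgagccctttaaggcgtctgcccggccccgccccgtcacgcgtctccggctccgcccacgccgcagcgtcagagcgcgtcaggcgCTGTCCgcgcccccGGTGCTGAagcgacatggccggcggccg
Syt11 (chr3:88772550-88772849, minus strand): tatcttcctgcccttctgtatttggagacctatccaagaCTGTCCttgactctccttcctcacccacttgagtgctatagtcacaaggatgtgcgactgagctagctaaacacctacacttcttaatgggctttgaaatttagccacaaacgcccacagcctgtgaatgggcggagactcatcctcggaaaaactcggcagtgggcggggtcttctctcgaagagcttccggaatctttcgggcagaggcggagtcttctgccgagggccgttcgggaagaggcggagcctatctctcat
Vamp1 (chr6:125215331-125215630, plus strand): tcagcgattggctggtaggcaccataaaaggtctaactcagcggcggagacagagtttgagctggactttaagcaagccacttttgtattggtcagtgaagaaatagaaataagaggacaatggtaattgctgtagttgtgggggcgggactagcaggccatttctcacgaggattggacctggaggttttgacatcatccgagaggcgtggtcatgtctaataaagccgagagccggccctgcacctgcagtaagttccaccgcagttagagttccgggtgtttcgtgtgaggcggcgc

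Windows were present for 26 of the 35 members. TCAGCACC stood in the windows of 2 of these 26 members, Syn1 and Unc13a, and in 1.65% of all 32851 windows. In Syn1 it began 231 bases before the start and in Unc13a 23 bases after it. Only exact runs of letters were searched. In Syn1 TCAGCACC is followed by gcggtcag, which holds a near match to GGACAG that is not marked. In Unc13a both parts lie on the reverse strand of the window, GGACAG at bases 259 to 264 and TCAGCACC at 273 to 280. GGACAG stood in windows of 6 of 26 members (Syngr1, Sv2b, Syt1, Syt2, Syt11 and Unc13a) and in 22.2% of all windows. TGACGTCA stood in the window of Syn1 alone among the members and in 1.79% of all windows. The GC box GGGCGG was found for 21 of 26 members, in 64.7% of their 34 windows and in 35.7% of all windows. The E-box CAGCTG was found for 8 of 26 members, in 23.5% of their 34 windows and in 16.3% of all windows. TAATTA, a core of homeodomain sites, was found for 0 of 26 members and in 5.29% of all windows. The windows of members held a median of 18 CG pairs, against 7 over all windows, and the part of this in the GC box share was not tested. Some members have several windows, which raises their chance of a match, and a match is a run of letters and no measured binding. Rest itself stood at 13.4 ± 2.70 FPKM at D4, 11.1 ± 2.24 at D4H8, 7.18 ± 1.95 at D5 and 5.35 ± 2.41 at D6, and its part in the levels below was not tested.

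Between D4 and D6, 33 of 35 members rose and none fell (edgeR quasi-likelihood test, Benjamini-Hochberg adjusted p under 0.05 over all genes tested), where 32.9% of the 17519 genes tested rose. The median log2 fold change was 3.72 over the members and -0.04 over all genes tested. The 3 libraries of D6 lay above all 3 of D4 in library-scaled counts for 34 of 35 members, against 34.5% of all genes. In the level per length, FPKM, 21 members were under 1 FPKM at D4 and 2 at D6, and the number at 10 FPKM or more went from 0 to 22.

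**Figure D1:**
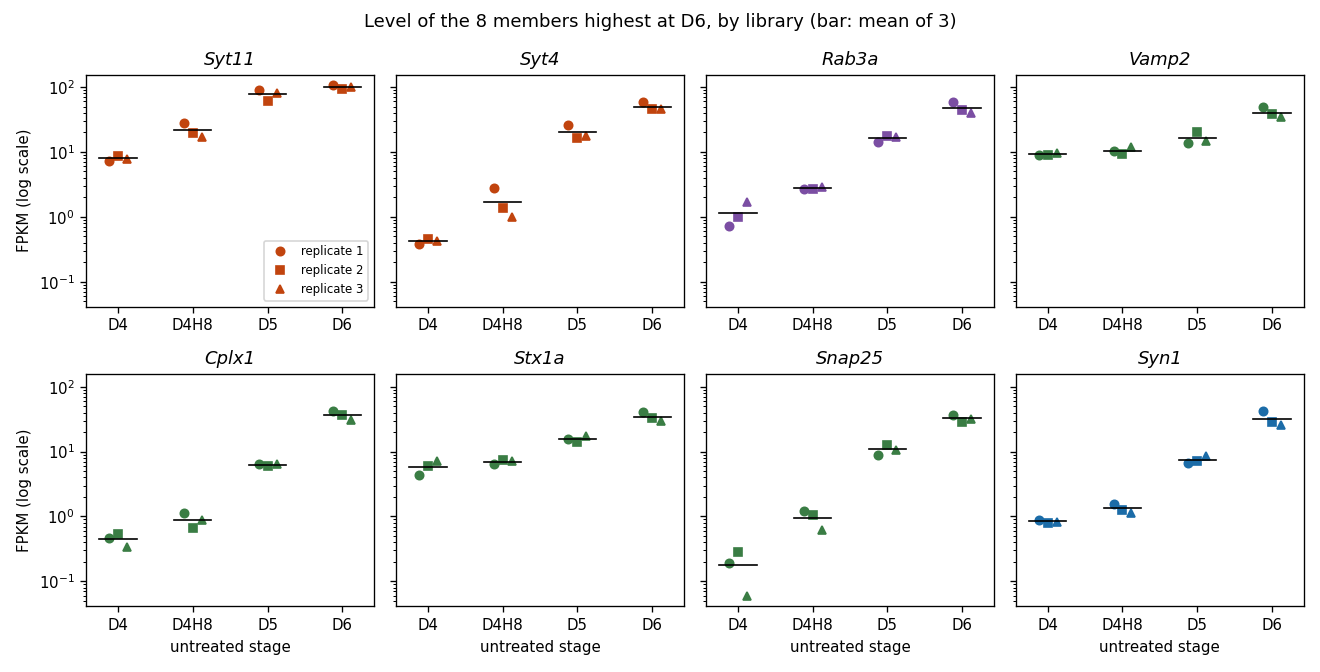
FPKM on a log scale (vertical) of the 8 members with the highest mean at D6, in the 12 untreated libraries at D4, D4H8, D5 and D6 (horizontal). Points are libraries, with circle, square and triangle for replicates 1, 2 and 3, and bars are means of 3; Syt11 reached 100.2 FPKM at D6, and Snap25 went from 0.177 to 32.8 FPKM.

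Of the synaptotagmins, which span vesicle and plasma membrane and bind membranes through their C2 domains, Syt11 was the most abundant member at every untreated stage after D4. Its level was 7.28, 8.78 and 7.71 FPKM in the D4 libraries, 28.03, 19.74 and 16.73 at D4H8, 88.68, 61.48 and 80.46 at D5, and 106.24, 94.84 and 99.42 at D6. Its libraries did not overlap between any of the 4 stages. Syt11 rose by a log2 fold change of 3.73 ± 0.22 (SE) between D4 and D6 (edgeR, Benjamini-Hochberg adjusted p = 4.8e-09). Over the last step it missed the threshold (0.49 ± 0.19, adjusted p = 0.062) and passed it when the replicate number was added as a block (adjusted p = 0.023); over 20 alternatives it was called in 5.

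Syt4, a close relative of Syt11 that is not a fast calcium sensor, stood at 0.38, 0.45 and 0.43 FPKM at D4, at 2.76, 1.36 and 1.01 at D4H8, at 26.14, 16.31 and 17.45 at D5, and at 58.95, 45.19 and 45.26 at D6. The stages did not overlap, and Syt4 was called in each of the 3 steps. Its log2 fold change between D4 and D6 was 6.96 ± 0.39 (edgeR, adjusted p = 3.7e-09). Syt1, the fast calcium sensor of most forebrain synapses, went from 0.0533 ± 0.0306 FPKM at D4 to 14.0 ± 2.74 at D6 (SD, n = 3), a log2 fold change of 8.02 ± 0.38. At D4 it rested on 3 to 12 counts per library.

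Syt2, the fast calcium sensor of the neuromuscular junction and hindbrain, followed another course. The gene (ENSMUSG00000026452) is protein-coding and lies at chr1:134646677-134762593 in mm10, on the plus strand. It went from 0.28, 0.58 and 0.32 FPKM at D4 to 2.94, 1.93 and 2.81 at D4H8, and then stood at 3.35, 3.25 and 3.35 at D5 and 3.58, 3.73 and 3.19 at D6. It had thus reached 73.1% of its D6 level 8 h after D4, where the median member was at 10.4%. The first step was called (log2 fold change 2.66 ± 0.25, edgeR adjusted p = 2.9e-05), the second (0.37 ± 0.22, adjusted p = 0.23) and the third (0.19 ± 0.22, adjusted p = 0.53) were not. Syt2 was the only member called in the first step and in neither later step.

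Syt7, a slow sensor with high calcium affinity, and Syt5 rose at the second and the third step, to 21.1 ± 4.06 and 4.99 ± 1.08 FPKM at D6. Doc2b, a soluble protein of spontaneous release, rose early, from 0.263 ± 0.0208 FPKM at D4 to 9.65 ± 4.57 at D5, and was then not called between D5 and D6 (12.4 ± 2.21 FPKM, edgeR adjusted p = 0.25). It was called there with the replicate block (adjusted p = 0.031) and without D5 replicate 1 (adjusted p = 0.012). All 7 genes of this group were called between D4 and D6.

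Among the SNARE genes, Snap25, one of the plasma membrane SNAREs, had the steepest rise. Its level was 0.19, 0.28 and 0.06 FPKM at D4, 1.2, 1.04 and 0.62 at D4H8, 8.90, 12.79 and 10.75 at D5, and 36.98, 29.07 and 32.25 at D6. No 2 stages overlapped, and the log2 fold change between D4 and D6 was 7.56 ± 0.37 (edgeR, adjusted p = 1.1e-09). Stx1a, its plasma membrane partner, started higher.

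Stx1a stood at 4.32, 5.90 and 7.21 FPKM at D4, 6.34, 7.48 and 7.14 at D4H8, 15.80, 13.95 and 17.18 at D5, and 40.94, 33.17 and 30.09 at D6. The D4 and D4H8 libraries overlapped and the later stages did not. Its log2 fold change between D4 and D6 was 2.67 ± 0.17 (edgeR, adjusted p = 1.6e-08). Vamp2, the vesicle SNARE of most synapses, stood at 8.93, 9.08 and 9.64 FPKM at D4, 10.17, 9.27 and 11.99 at D4H8, 13.90, 20.50 and 14.74 at D5, and 49.17, 37.80 and 34.04 at D6. Its rise was called at the second step (0.65 ± 0.18, adjusted p = 0.014) and at the third (1.42 ± 0.18, adjusted p = 5.2e-05), and not at the first (0.13 ± 0.18, adjusted p = 0.75). The call at the second step was lost without D4H8 replicate 2 (adjusted p = 0.069) and without D5 replicate 2 (adjusted p = 0.12), and in 1 fit over all 21 libraries (adjusted p = 0.13).

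Vamp1 and Nsf were the 2 members not called between D4 and D6. Vamp1, the vesicle SNARE of mature motor nerve terminals, stood at 0.92, 1.32 and 1.24 FPKM at D4, 1.30, 1.36 and 1.45 at D4H8, 1.52, 1.48 and 1.49 at D5, and 1.13, 1.17 and 1.18 at D6. It stayed in a narrow range, with D6 inside the range of D4 and D5 above both, and its log2 fold change between D4 and D6 was 0.08 ± 0.15 (edgeR, adjusted p = 0.66). Nsf, the ATPase that takes SNARE complexes apart in all cells, stood at 8.19, 10.04 and 11.09 FPKM at D4, 10.54, 10.70 and 10.36 at D4H8, 6.39, 9.93 and 12.08 at D5, and 12.52, 11.02 and 11.43 at D6. Its D6 level was 11.7 ± 0.775 FPKM against 9.77 ± 1.47 at D4. The libraries overlapped in FPKM and not in library-scaled counts, and the log2 fold change of 0.33 ± 0.17 was not called (edgeR, adjusted p = 0.10). Napb, the neuronal SNAP adaptor that recruits Nsf, rose from 0.780 ± 0.0529 to 14.7 ± 1.51 FPKM and was called in all 3 steps.

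The complexins, small proteins that clamp and activate the SNARE complex, were both called at the second and the third step. Cplx1 stood at 0.46, 0.53 and 0.34 FPKM at D4, 1.13, 0.67 and 0.88 at D4H8, 6.36, 6.04 and 6.35 at D5, and 42.25, 37.25 and 30.74 at D6. It was at 17.01% of its D6 level at D5. Its log2 fold changes at the second and the third step were near equal, 2.75 ± 0.22 and 2.67 ± 0.20 (edgeR, adjusted p = 9.7e-07 and 9.4e-07). Cplx2 was the more abundant of the pair at D4, with 3.75 ± 0.0624 FPKM, and reached 15.7 ± 1.57 FPKM at D6. Its call between D4H8 and D5 was lost without any 1 of 9 of the 12 libraries in the fit (adjusted p = 0.052 to 0.19).

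At D5 the median level of the vesicle membrane genes was 29.6% of that at D6, against 48.3% for the synaptotagmins and Doc2b, 43.0% for the SNARE group, 34.7% for the 3 Rab3 genes and 34.6% for the active zone genes; these medians are given without a test. Syn1, a synapsin that holds vesicles in the reserve pool, stood at 0.89, 0.80 and 0.82 FPKM at D4, 1.56, 1.27 and 1.15 at D4H8, 6.66, 7.23 and 8.54 at D5, and 41.87, 28.81 and 25.92 at D6. The stages did not overlap, and Syn1 rose by a log2 fold change of 2.47 ± 0.22 at the second step and 2.23 ± 0.20 at the third (edgeR, adjusted p = 2.1e-06 and 4.4e-06). Syn2 and Syn3 stayed low, at 1.27 ± 0.161 and 0.863 ± 0.281 FPKM at D6. The exons of Syn3 share 1733 bases with Timp3 on the other strand, and since the strand setting of the counting is not given in the sources used here, its counts are uncertain.

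Sv2c, a vesicle glycoprotein that serves botulinum neurotoxin as a receptor, had the largest fold change of the 35 between D4 and D6. The gene (ENSMUSG00000051111) lies at chr13:95954594-96132577 in mm10, on the minus strand. It stood at 0.04 FPKM in each D4 library, 0.04, 0.07 and 0.02 at D4H8, 0.40, 0.39 and 0.36 at D5, and 16.46, 12.55 and 11.35 at D6. At D5 it was at 2.85% of its D6 level, the lowest share of the members. The log2 fold change between D5 and D6 was 5.25 ± 0.22 (edgeR, adjusted p = 3.2e-08), and the D4 value rests on 7 to 8 counts per library. Sv2a, the receptor of the drug levetiracetam and the most abundant of the 3 paralogs, went from 2.42 ± 0.664 to 21.1 ± 2.93 FPKM, and Sv2b from 0.040 ± 0.010 to 0.520 ± 0.175 FPKM, the lowest level of the members at D6.

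Syp, synaptophysin, a major vesicle protein that binds Vamp2, was the only gene of this group called in the first step, and it was called in the other two as well. It went from 0.860 ± 0.363 FPKM at D4 to 23.6 ± 1.01 at D6. Its relative Synpr was at 1.09 ± 0.185 FPKM at D6. The synaptogyrins, also 4-pass vesicle proteins, differed: Syngr3 rose at the second and the third step to 22.8 ± 1.30 FPKM, and Syngr1 was called only in the last step, reaching 6.38 ± 1.01 FPKM.

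Of the Rab3 GTPases, which guide vesicles to the release site, Rab3a stood at 0.71, 1.00 and 1.72 FPKM at D4, 2.70, 2.71 and 2.91 at D4H8, 14.24, 17.41 and 17.21 at D5, and 57.98, 43.80 and 39.14 at D6. The stages did not overlap, and Rab3a rose in each step, by a log2 fold change of 5.47 ± 0.26 in all (edgeR, adjusted p = 7.8e-10). Rab3c also rose in each step, from 0.0733 ± 0.0351 to 17.3 ± 2.42 FPKM. Rab3b, the paralog with the highest level of the 3 at D4, was not called in the first step and rose from 1.66 ± 0.182 to 5.07 ± 0.468 FPKM.

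The active zone genes all rose between D4 and D6, and all 7 were called between D5 and D6. Bsn and Unc13a rose in each step. Bsn, a giant scaffold protein, went from 0.257 ± 0.0814 to 14.5 ± 3.19 FPKM, and Unc13a, a priming factor of vesicle fusion, from 0.550 ± 0.281 to 21.2 ± 4.05 FPKM. Unc13a shares 495 exonic bases with Colgalt1 on the other strand, with the same uncertainty as for Syn3. Pclo, the partner scaffold of Bsn, was lower, at 5.70 ± 1.37 FPKM at D6. Erc2 was the latest of the group, at 17.3% of its D6 level at D5, and rose between D5 and D6 by a log2 fold change of 2.65 ± 0.19 (edgeR, adjusted p = 6.1e-07). Of the RIM proteins, which tether vesicles and calcium channels, Rims2 (10.7 ± 1.34 FPKM at D6) stood above Rims1 (2.01 ± 0.369 FPKM). Unc13b, the second priming factor of the list, reached 9.80 ± 1.2 FPKM.

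**Figure D2:**
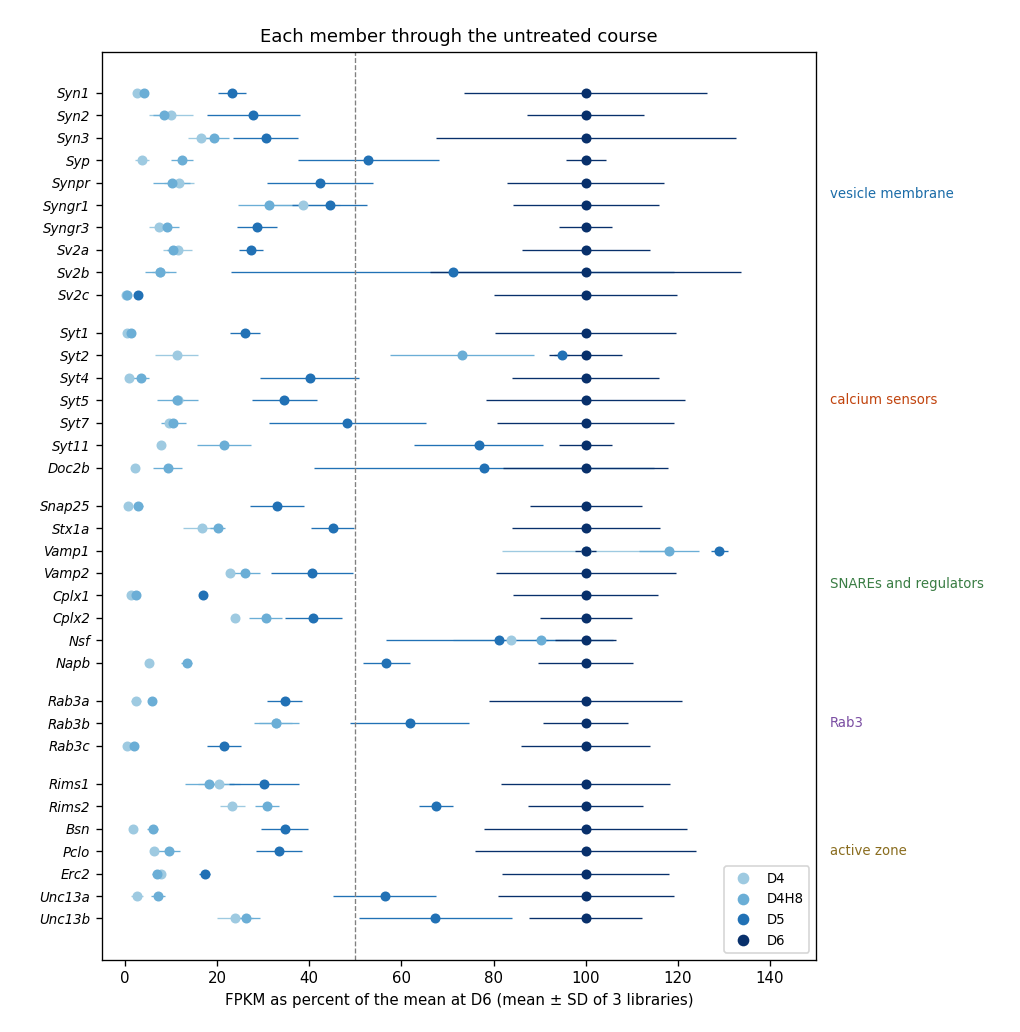
Level of each of the 35 members at D4, D4H8, D5 and D6 as percent of its mean FPKM at D6 (horizontal; points are means and bars SD of 3 libraries; the dashed line is at 50%), grouped by role. Of the members, 23 passed 50% only at D6, 9 at D5, Syt2 at D4H8 and 2, Vamp1 and Nsf, already at D4. The label calcium sensors stands for the synaptotagmins and Doc2b, not all of which are calcium sensors of release.

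By step, 12 of 35 members rose between D4 and D4H8, where 4.06% of 17519 genes did. DAPT was added at the start of this step, and its part cannot be told apart from that of time. The 12 were Syp, Syt1, Syt2, Syt4, Syt11, Doc2b, Snap25, Napb, Rab3a, Rab3c, Bsn and Unc13a, and the median log2 fold change was 0.27 over all 35. Of these, Syt1 lost its call without any of the D4 libraries (adjusted p = 0.061 to 0.095), without D4H8 replicate 1 (0.28) and without D4H8 replicate 2 (0.057). Unc13a lost it without D4 replicate 1 (0.054), D4 replicate 2 (0.059) or D4H8 replicate 1 (0.066), and Rab3a without D4 replicate 1 (0.054) or with only the 6 libraries of the 2 stages (0.052). In 1 fit over all 21 libraries Bsn (0.070) and Syt1 (0.15) were not called, and Syt1 was not called with the 6 libraries alone (0.12). Between D4H8 and D5, 29 members rose against 17.2% of all genes, with a median of 1.79, and between D5 and D6 29 rose against 19.2% of all genes, with a median of 1.42. No member fell in a step. With the replicate number as a block, 30 members rose between D4H8 and D5 (18.5% of all genes), the addition being Rims1, and 31 between D5 and D6 (20.8% of all genes), the additions being Syt11 and Doc2b. Between D5 and D6 the call of Unc13a was lost without D5 replicate 2, D5 replicate 3 or D6 replicate 1 (adjusted p = 0.071 to 0.074), and that of Unc13b without D5 replicate 2 (0.061) or D5 replicate 3 (0.059).

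The largest log2 fold change of the 3 steps, called or not, came between D4H8 and D5 for 21 members and between D5 and D6 for 12. For Syt2 and Vamp1 it came between D4 and D4H8. Vamp1, and Nsf among the 12, were called in no step, and the steps differ in length. In all, 17 members rose at both later steps only and 9 rose at all 3. Within D6, 28 of 35 members were highest in replicate 1, the library with the least of the pluripotency markers, and 24 were lowest in replicate 3. The part of these cells in the levels was not tested. Without D6 replicate 1, 33 members rose between D4 and D6, as with it.

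The paralogs of a family changed places. In the level per length, Cplx2 made up 89.4% ± 2.11 (SD, n = 3) of the complexin transcripts at D4 and 30.2% ± 5.17 at D6. Unc13b went from 81.7% ± 6.31 of its pair at D4 to 31.8% ± 1.65 at D6, Syngr1 from 60.1% ± 5.43 to 21.8% ± 1.9, and Rab3b from 58.8% ± 7.75 of the Rab3 transcripts to 7.39% ± 0.737. In none of these families did the libraries of D4 and D6 overlap. In each of the 4 the early paralog itself rose, and its share became smaller while the other paralogs rose more.

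Sv2a held 96.6% ± 1.08 of the Sv2 transcripts at D4, 88.7% ± 2.59 at D5 and 60.3% ± 1.17 at D6, when Sv2c held 38.2% ± 1.80. Vamp2 held 88.9% ± 1.69 of its pair at D4 and 97.1% ± 0.564 at D6. Syn1 was the main synapsin throughout, from 75.6% ± 3.39 to 93.7% ± 0.388. Among the 6 synaptotagmins, Syt11 had 69.6% ± 1.78 at D4 and 51.9% ± 2.73 at D6, Syt4 3.69% ± 0.182 and 25.6% ± 1.44, and Syt2 peaked at D4H8 with 9.15% ± 2.47. These shares are levels, described without a test.

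**Figure D3:**
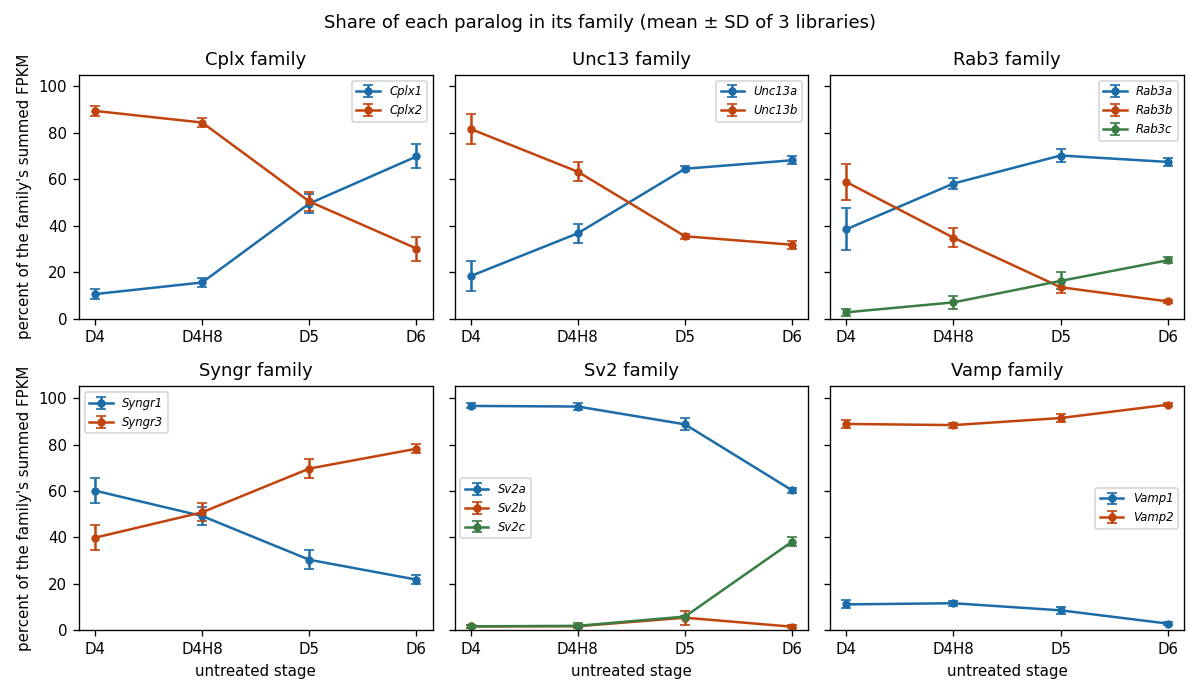
Share of each paralog in the summed FPKM of its family (vertical, percent) at the 4 untreated stages (horizontal), as mean and SD of 3 libraries, for complexins, Unc13, Rab3, synaptogyrins, Sv2 and Vamp. Cplx2 went from 89.4% to 30.2% and Sv2c from 1.70% to 38.2%.

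Other genes of the pathway were listed by name. Of 23 further genes of transmitter release, 20 rose and 2 fell between D4 and D6 (edgeR, adjusted p under 0.05). Among all 17519 genes tested, 5761 rose and 5427 fell. In the release list, the changes were as follows. The steepest were Rph3a, a Rab3 effector, with 0 FPKM in each D4 library and 1.33, 1.60 and 1.07 at D6, and Ppfia2, a liprin scaffold, with 0.00, 0.00 and 0.02 at D4 and 4.88, 4.89 and 4.31 at D6. The 2 that fell were the synaptotagmins Syt9 (-0.98 ± 0.33 on the log2 scale) and Syt6 (-0.60 ± 0.21). Of 10 genes of vesicle endocytosis 9 rose and none fell, with the dynamin Dnm3 (8.20 ± 0.36) and the uncoating cofactor Dnajc6 (6.26 ± 0.39) in front. All 10 pan-neuronal markers rose too, with a median of 6.56.

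The relatives of the members that serve membrane traffic in most cells did not move together. Of 18 tested, 6 rose and 8 fell between D4 and D6, with a median of -0.10. Of all 17519 genes tested, 5761 rose and 5427 fell. Vamp8 (-2.37 ± 0.31) and Vamp3 (-1.80 ± 0.16) fell most, and Rab3d (2.71 ± 0.16) and Erc1 (1.13 ± 0.15) rose most. Snap23, the relative of Snap25 in non-neuronal cells and chosen here after its values were seen, went from 19.84, 17.35 and 17.78 FPKM at D4 to 4.69, 5.34 and 7.10 at D6. Snap25 was thus below Snap23 in all D4 libraries and above it in all D6 libraries.

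GSKJ4 was compared with no treatment at D4H8, D5 and D6, to ask whether a day of GSKJ4 altered these transcripts. At D4H8, 1 of 34 members tested passed the threshold, where 3.96% of 16269 genes did, and that member was Syt2. Sv2b was too low to be tested there. The members showed both directions: 18 fold changes were above 0 and 16 below, with a median of 0.12 against 0.02 over all genes tested. At an unadjusted p under 0.05 there were 7 higher and 2 lower members, against 25.1% of all genes in either direction, and the treated and untreated libraries did not overlap for 9 of 34 members against 33.4% of all genes. The members' shares are therefore near those of all genes.

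Syt2 stood at 2.94, 1.93 and 2.81 FPKM in the untreated D4H8 libraries and at 1.07, 0.23 and 0.51 with GSKJ4. The treated libraries were all below the untreated ones and reached down to the D4 level. Syt2 fell by 2.15 ± 0.46 on the log2 scale (edgeR, Benjamini-Hochberg adjusted p = 0.039). The call was lost without any of the 3 untreated libraries (adjusted p = 0.11 to 0.17) and without D4H8_GSKJ4 replicate 3 (adjusted p = 0.085). Over all 13 alternative fits its adjusted p ran from 1.0e-08 to 0.17, and 9 of them kept the call.

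Syt11 came next, with 28.03, 19.74 and 16.73 FPKM untreated and 13.49, 8.33 and 6.48 with GSKJ4. The groups did not overlap, but the difference of -1.23 ± 0.30 on the log2 scale missed the threshold (edgeR, adjusted p = 0.054, and 3.1e-06 to 0.24 over the alternatives). Both synaptotagmins are among the members called between D4 and D4H8, and the untreated D4H8 libraries enter both comparisons. Sv2c (1.84 ± 0.54, adjusted p = 0.081), Syn2 (1.49 ± 0.42, adjusted p = 0.074), Rims1 (1.27 ± 0.43, adjusted p = 0.11) and Sv2a (0.83 ± 0.23, adjusted p = 0.073) were higher with GSKJ4 in all 3 libraries and did not pass either. Of these, Sv2a had 1.9, 2.3 and 2.42 FPKM untreated and 4.95, 3.35 and 3.76 treated, while Sv2c rested on 3 to 32 counts per library.

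Other markers moved in the same libraries. Of 9 motor neuron markers tested 3 fell with GSKJ4 at D4H8 (edgeR, adjusted p under 0.05), and the summed level of the list was 90.9 to 128 FPKM untreated and 22.0 to 63.0 FPKM treated. Of 8 spinal progenitor markers 3 fell, and their sum was 443.5 to 636 FPKM untreated and 189.5 to 268 FPKM treated. None of the 10 pan-neuronal markers was called (5 were lower at an unadjusted p under 0.05), with sums of 279 to 512 FPKM untreated and 116.5 to 343 FPKM treated. No motor neuron marker that was called, Isl1, Lhx3 or Chat, was at 0 in a treated library. The part of these in the Syt2 value was not tested.

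**Figure D4:**
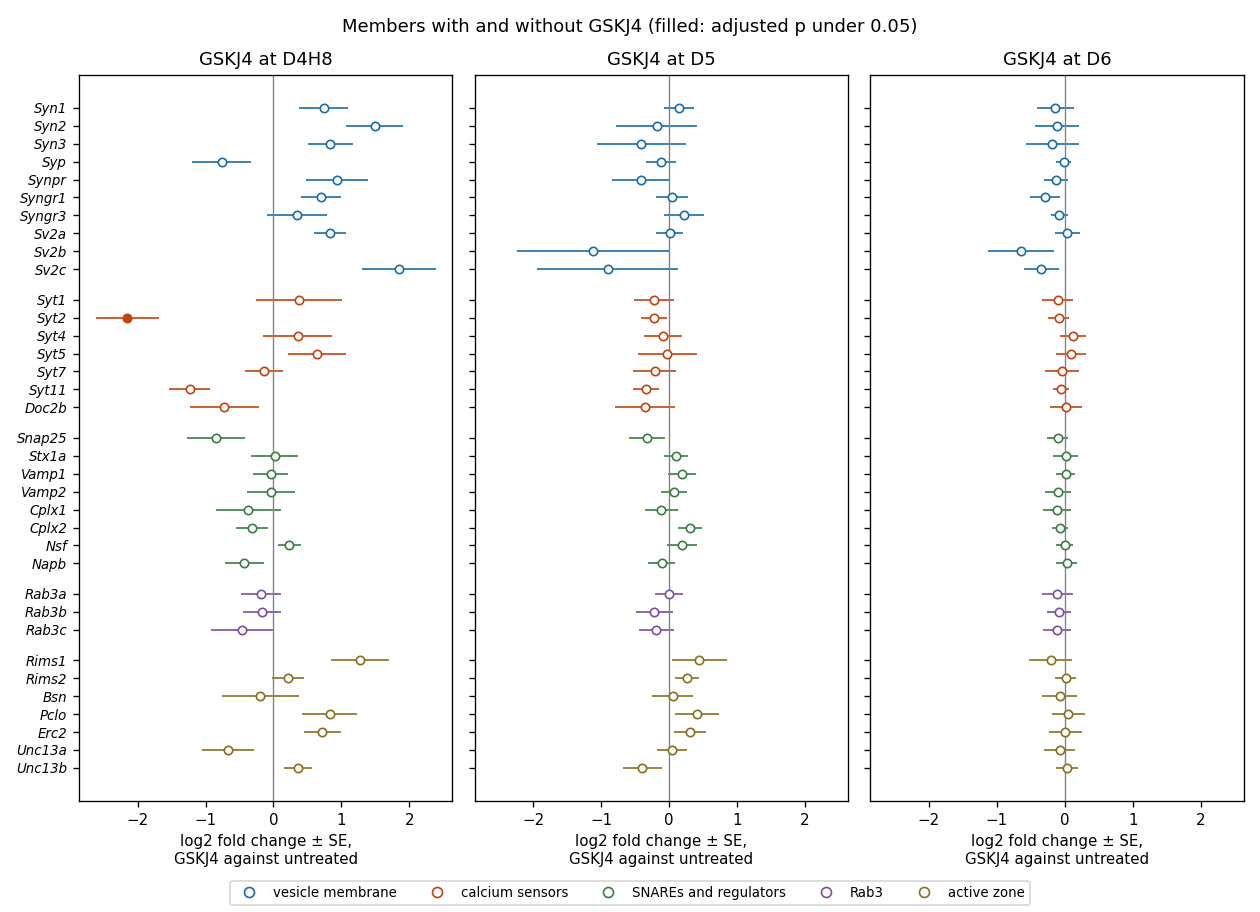
Log2 fold change of GSKJ4 against untreated (horizontal; points with SE) for the members (rows, coloured by role) at D4H8, D5 and D6, 3 libraries per group. A filled point passed an adjusted p under 0.05, which only Syt2 at D4H8 did (-2.15 ± 0.46), and Sv2b has no point at D4H8. The label calcium sensors stands for the synaptotagmins and Doc2b, not all of which are such sensors.

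At D5 none of 35 members passed, in edgeR or in DESeq2, where 1 of 16309 genes did (0.00613%) in edgeR. At an unadjusted p under 0.05 there were 0 members, against 4.7% of all genes. The lowest p belonged to Syt11 and Cplx2. Syt11 stood at 88.68, 61.48 and 80.46 FPKM untreated and 71.75, 60.50 and 55.12 treated, overlapping groups with a log2 fold change of -0.34 ± 0.19 (edgeR, adjusted p = 0.98). Cplx2 stood at 5.34, 6.70 and 7.19 FPKM untreated and 8.70, 8.04 and 7.73 treated, without overlap, at 0.31 ± 0.18 (edgeR, adjusted p = 0.98). Syt2 had 3.35, 3.25 and 3.35 FPKM untreated and 2.60, 2.70 and 3.53 treated (-0.22 ± 0.19, adjusted p = 0.98). Sv2b and Sv2c had 0 counts in D5_GSKJ4 replicate 2, the library with the most genes at 0, and 22 to 84 in the other D5 libraries.

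At D6 none of 35 members passed, in edgeR or in DESeq2, and 0.0% of 16301 genes did in edgeR; at an unadjusted p under 0.05 in this unpaired fit there were 0 members against 1.36% of all genes. The replicate numbers paired the libraries at this stage, and with the replicate block 1.58% of genes and 1 member passed, Sv2c. At an unadjusted p under 0.05 with the block there were 8 lower members (Syn1, Syngr1, Sv2b, Sv2c, Syt1, Cplx1, Rab3a and Rab3c) and 1 higher, Syt4, against 10.8% of all genes in either direction. In counts scaled by library, 14 of 35 members were lower with GSKJ4 in all 3 pairs and 2 were higher, and 18.9% of all genes were lower in all 3, a count added after the values were seen. Sv2c stood at 16.46, 12.55 and 11.35 FPKM untreated and 14.06, 9.93 and 7.93 treated, lower in each of the 3 pairs although the groups overlapped. It fell by 0.36 ± 0.05 on the log2 scale with the block (edgeR, adjusted p = 0.00074), and without it the difference was -0.34 ± 0.26 (adjusted p = 1.0). Syngr1, the other member with the lowest p, had 7.13, 6.79 and 5.23 FPKM untreated and 6.58, 4.71 and 4.37 treated (-0.30 ± 0.22, adjusted p = 1.0, and 0.11 with the block). Of the 35 fold changes at D6, the extremes were -0.64 for Sv2b and 0.12 for Syt4.

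The difference between stages was tested as such over the 18 libraries of D4H8, D5 and D6. The GSKJ4 effect on Syt2 was higher at D6 than at D4H8 by 2.07 ± 0.47 on the log2 scale (edgeR, adjusted p = 0.047), and Syt2 was the only member of 35 called there, where 0.735% of 18103 genes were. At D6 Syt2 stood at 3.58, 3.73 and 3.19 FPKM untreated and 3.78, 3.20 and 2.92 treated. Between D5 and D4H8 the difference for Syt2 was 1.92 ± 0.47 (adjusted p = 0.12); no member passed there, and 0.249% of genes did. Between D6 and D5 no member and 0.0% of genes passed in edgeR, and at an unadjusted p under 0.05 the members numbered 0. The Syt2 value at D6 against D4H8 is near the threshold: its adjusted p ran from 1.5e-05 to 0.17 over 25 alternatives, of which 9 kept the call. It was lost without any single library except D4H8_GSKJ4 replicate 1 or D5_GSKJ4 replicate 2.

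**Figure D5:**
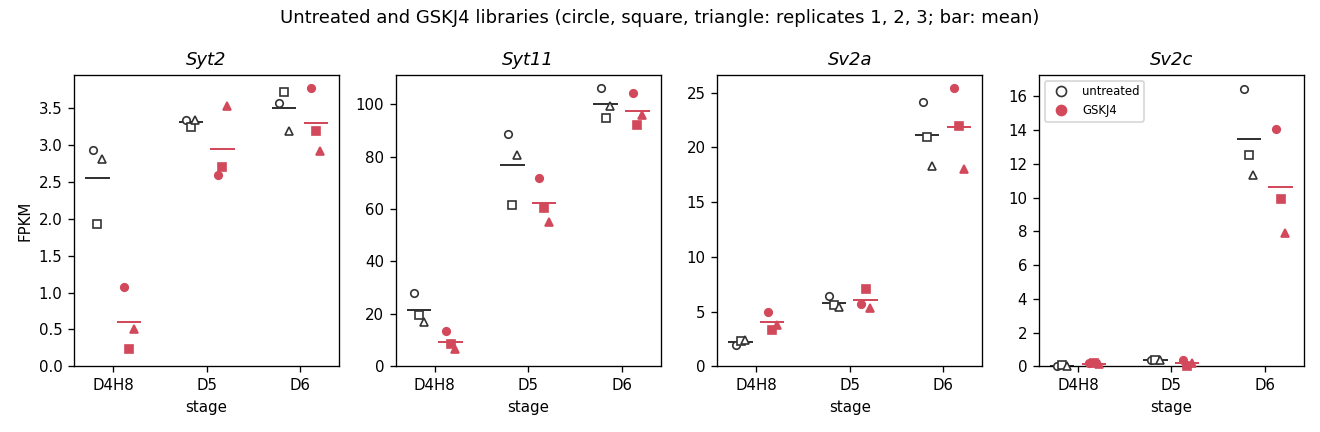
FPKM (vertical) of Syt2, Syt11, Sv2a and Sv2c in each untreated (open) and GSKJ4 (filled) library at D4H8, D5 and D6; circles, squares and triangles are replicates 1, 2 and 3 and bars are means of 3. At D4H8 the treated libraries of Syt2 (0.23 to 1.07 FPKM) lie below the untreated ones (1.93 to 2.94 FPKM), and at D6 the groups overlap for all 4 genes.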

How the data were processed

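PolyA RNA-seq of 21 libraries in 7 groups was used. The authors deposited raw counts per gene and FPKM per gene (fragments scaled by exon length and by library size) for each library. The submitters' processing notes name HISAT2, SAMtools, HTSeq, DESeq2 and the genome build mm10; the study's methods also name trimming with fastp, and the strand setting of the counting is not given in the sources used here. Reads shared by overlapping genes on opposite strands therefore cannot be assigned with certainty. The GSKJ4 dose is not given in the labels used here.

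Levels are the deposited FPKM. Tests used the deposited counts in edgeR 4.0.16 (R 4.3.3): TMM scaling, filterByExpr with a minimum count of 10, the quasi-likelihood test, and Benjamini-Hochberg adjustment over all genes tested, with a call at an adjusted p under 0.05. Stage steps were fitted over the 12 untreated libraries, GSKJ4 contrasts over the 6 libraries of a stage, and differences between GSKJ4 effects over 18 libraries. Values ± SD are over 3 libraries, and log2 fold changes are given ± SE. The p-values set a difference between groups against the spread between replicates. That spread was pooled over all groups of a fit and drawn towards that of other genes. Alternatives were DESeq2 1.42.0, RLE and upper-quartile scaling, other filters, 1 fit over all 21 libraries, the replicate block, and leaving out each library. On simulated counts the test recovered 65% of genes changed 2-fold and 98% of those changed 4-fold for D6 against D5 (17519 genes). For GSKJ4 at D4H8 it recovered 36% and 94% (16269 genes). The changed genes were drawn only from those with higher mean counts, so these shares may not hold for members with few counts.

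Same-numbered libraries deviated together for D4H8 and D5 (r across genes 0.31, 0.15 and 0.14), D5 and D6 (0.31, 0.14 and 0.23) and D6 and D6_GSKJ4 (0.66, 0.32 and 0.45), and the replicate block is given beside those results. Here the pairing rests on the data, since the labels tie no number to a batch.

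The members and lists were chosen with earlier results of these data known. Values in every library are given for the 8 members highest at D6, the members not called between D4 and D6, those called in a GSKJ4 contrast, and the pair with the lowest p in each GSKJ4 contrast; those of Sv2a were added after its values were seen. Of the other lists, the genes named are those with the largest changes between D4 and D6. Promoter windows are from RefSeq (GRCm38.p6), and figures were drawn with matplotlib 3.10.9.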

Additional observations from a re-analysis of the deposited data

Results flagged for a closer look

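The GSKJ4 effect on Syt2 differed between stages by a test of the difference itself. It was higher at D6 than at D4H8 by 2.07 ± 0.47 on the log2 scale (edgeR quasi-likelihood test over 18 libraries, Benjamini-Hochberg adjusted p = 0.047). Syt2 was lower in all 3 treated libraries at D4H8, and the treated and untreated libraries overlapped at D6. With each library left out in turn the difference ran from 1.71 to 2.77. Of 10 motor neuron markers, 3 had a higher GSKJ4 effect at D6 than at D4H8 (edgeR, adjusted p under 0.05) and 7 were not called. Their values ran from -0.59 to 2.82 on the log2 scale, with a median of 1.19. Of 8 spinal progenitor markers 1 was called higher, with a median of 1.13. Over all 18103 genes, 100 were higher and 33 lower. The part of these markers in the Syt2 value was not tested.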

How the results depend on the processing

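The counts of members called in the 4 stage comparisons stayed within 1.5 times under every alternative run, as did those for GSKJ4 at D5 and for the difference between D6 and D5. The number of members called for GSKJ4 at D4H8 was 1 in the edgeR fit as described. It was 6 in DESeq2, 2 with upper-quartile scaling, 4 with no filter and 2 with at least 10 counts in every library. It was 5 in 1 fit over all libraries, 7 with the replicate block (4 higher, 3 lower), and 0 to 4 with a library left out. Calls over all genes rose as well, from 343 higher and 301 lower of 16269 to 1136 and 838 of 15456 in DESeq2. They were 1229 and 1058 of 31166 with no filter, and 1058 and 990 of 18349 in 1 fit over all libraries. With the block they were 1235 and 1039 of 16269. With upper-quartile scaling they were 370 and 334 of 16269, and with at least 10 counts in every library 378 and 295 of 14329. Without D4H8_GSKJ4 replicate 1, which gave 4 members, they were 193 and 348 of 16744. Without replicate 2 of that group they were 998 and 748 of 16694, and without replicate 3 266 and 184 of 16799. The same-numbered libraries with and without GSKJ4 did not all deviate together at D4H8 (r 0.44, 0.073 and 0.26) or at D5 (0.22, 0.038 and 0.21). Nor did those of D4 and D4H8 (0.29, 0.073 and 0.28). Because of the lowest r in each, the block is given for these only here, although the other pairs had higher r. With the replicate block, GSKJ4 at D6 had 1 member in place of 0, and D4H8 against D4 had 13 in place of 12. Of all genes, 1.58% passed for GSKJ4 at D6 with the block, and 838 of 17519 rose between D4 and D4H8. The difference of GSKJ4 effects between D5 and D4H8, with 0 members, had 1 in DESeq2, 2 with no filter, 1 with the replicate block and 0 to 2 with a library left out. For this difference 158 genes were higher and 78 lower of 17524 in DESeq2, and 245 and 106 of 35343 with no filter. With the block they were 143 and 42 of 18103. Without D4H8_GSKJ4 replicate 1, which gave 2 members, they were 159 and 13 of 18675. The difference of GSKJ4 effects between D6 and D4H8, with 1 member, had 3 with no filter, 2 with the replicate block and 0 to 3 with a library left out. For this difference 100 genes were higher and 33 lower of 18103 in the edgeR fit as described. Calls over all genes under the other settings are not given here, so these member counts are not read as a result about the members. Over all genes, the 644 calls for GSKJ4 at D4H8 became 43 to 50 without any untreated D4H8 library. Vamp1 between D4 and D6 changed sign, to -0.076 with upper-quartile scaling, and ran from -0.057 to 0.17 with a library left out, and was not called in any of these. Between D4 and D6 the median over all genes was -0.04, and -0.19 with upper-quartile scaling. Nsf, not called between D4 and D6, was called with only the 6 libraries of these stages (adjusted p = 0.047) and without D5 replicate 1 (0.022). Shares of paralogs taken from counts instead of FPKM moved by more than 1 SD for 31 of 36 values, as counts are not scaled by length. The causes of the other changes were not tested. With 3 libraries a group, many 2-fold differences are not detectable, more so for members under 1 FPKM.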
